A study of Mus musculus with 7 samples.

Results

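Clustered peaks are stretches of the genome where several peaks of the glucocorticoid receptor (GR) or of PPARα were called close together. Within each deposited peak table, peaks were sorted by position and neighbours separated by less than 100 kb were chained, and all peaks in chains of 3 or more were kept. This gave 353 clustered peaks among the 2808 peaks of both lists. The GR list contributed 189 of its 1157 peaks (16.3%), in 30 chains, and the PPARα list 164 of its 1651 peaks (9.93%), in 32 chains. The members were thus chosen by called positions, so their number and closeness are a description and were not tested.

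The lists come from chromatin immunoprecipitation followed by sequencing (ChIP-seq) in BFU-E (burst-forming unit erythroid) cells, which are among the first progenitors restricted to making red cells. They were purified from 129/SvImJ fetal livers at E14.5. Cells of other lineages were depleted first, and c-kit positive cells low in CD71 were then sorted. Both libraries analysed here are labelled as cells given 100 nM Dexamethasone, which binds GR, and 10 μM GW7647, which binds PPARα, for 4 h in a medium with SCF, IGF-1 and Epo. Of the 7 samples of the series, 5 were not analysed here, namely both antibodies in untreated cells, both after Dexamethasone alone, and the input DNA as a sample of its own. The labels do not say how many animals were pooled, and position lists hold no expression values with which to check the cell type.

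GR is a steroid receptor that enters the nucleus with its ligand and binds DNA at short palindromic elements, and PPARα binds direct repeats together with RXR. Glucocorticoids are known to favour renewal of early erythroid progenitors over their maturation. The label given to these clusters names 2 classes of multicopy gene, and no peak was placed at a gene of either. Replication-dependent histone genes are short, intronless genes that lie in dense groups and are transcribed by RNA polymerase II in S phase. Transfer RNA (tRNA) genes are shorter still, carry their promoter inside the transcribed part and are transcribed by RNA polymerase III.

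Each antibody had 1 library, so no value below has a replicate check and no test between conditions was made. The GR library held 7516221 reads after duplicates were removed, the PPARα library 1959992, and the shared input 30047397. At equal enrichment a PPARα peak would thus hold 0.261 times the reads of the GR peak. The smallest peaks held 6 reads in the GR list and 4 in the PPARα list. The header of the PPARα table names a read file marked for Dexamethasone alone, while its run name and its input carry the mark of both compounds. The treatment of the PPARα library therefore rests on its label. Positions are on mm9, the build named in the submitters' processing notes, and no genome or annotation of that build was used, so no peak is assigned to a gene.

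Gaps and chains just inside and just outside the limits of the rule were as follows. The widest gap inside a chain was 98895 bp in the GR list and 95830 bp in the PPARα list, and the narrowest gap between separate chains was 100205 bp and 100208 bp. A gap of 116185 bp kept the chain of 7 GR peaks on chromosome 13 apart from the chain of 19 before it, and a gap of 98586 bp held the last 3 GR peaks of the chromosome 3 chain to the rest. Just below the size limit lay 73 GR and 125 PPARα chains of 2 peaks, with 146 and 250 peaks. Of the chains kept, 13 GR and 17 PPARα chains had 3 peaks, and 10 and 7 had 8 or more.

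Chains were of different texture. A chain was called compact where the median gap between its neighbours was under 1 kb, and spread otherwise. The GR list had 12 compact chains with 55 peaks and 18 spread chains with 134 peaks. In the PPARα list 15 chains with 68 peaks were compact and 17 with 96 peaks were spread. Compact GR chains spanned a median of 1007 bp and spread ones 65972.5 bp, with a longest span of 318365 bp. One chain on chromosome 11 counted as compact although it spanned 88363 bp, because its peaks sat in tight groups far apart.

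Clustered GR peaks coincided less often with PPARα peaks than the GR list as a whole, and clustered PPARα peaks more often with GR peaks than the PPARα list as a whole. A peak was called shared if it overlapped a peak of the other list by at least 1 bp, which held for 64.9% of all GR and 46.3% of all PPARα peaks. Of the clustered GR peaks 80 of 189 were shared (42.3%, exact 95% interval 35.2 to 49.7%), against 671 of the 968 outside chains (69.3%, 66.3 to 72.2%). Of the clustered PPARα peaks 97 of 164 were shared (59.1%, 51.2 to 66.7%), against 668 of 1487 outside (44.9%, 42.4 to 47.5%). Intervals cover counting error only. At a fold of 10 or more, or with summits at most 50 bp apart, the PPARα difference was smaller and the interval of the clustered share held the value outside chains (48.9%, 40.4 to 57.5%, against 43.3%, and 47.6%, 39.7 to 55.5%, against 42.4%). Neighbouring peaks are not independent, and 1 input served for calling both lists. No p is given for these differences.

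The shared fraction of GR peaks was lowest in spread chains. There 46 of 134 GR peaks were shared (34.3%, interval 26.3 to 43.0%), while in compact chains 34 of 55 were (61.8%, 47.7 to 74.6%). Among PPARα peaks the shares were 55 of 96 (57.3%) in spread and 42 of 68 (61.8%) in compact chains. The chain size went the same way in the GR list, with 41 of 116 peaks shared (35.3%) in chains of 8 or more, 39 of 73 (53.4%) in chains of 3 to 7, 96 of 146 (65.8%) in pairs and 575 of 822 (70.0%) among single peaks. Chains of one kind and mixed chains both occurred. In 8 GR chains, with 37 peaks, every peak was shared, and in 7 chains, with 43 peaks, the PPARα list had no peak anywhere in the span. The other 15 GR chains were mixed, and 6 of the 15 of one kind had only 3 peaks. In the PPARα list 8 chains were shared throughout, 3 held no GR peak and 21 were mixed.

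**Figure D1:**
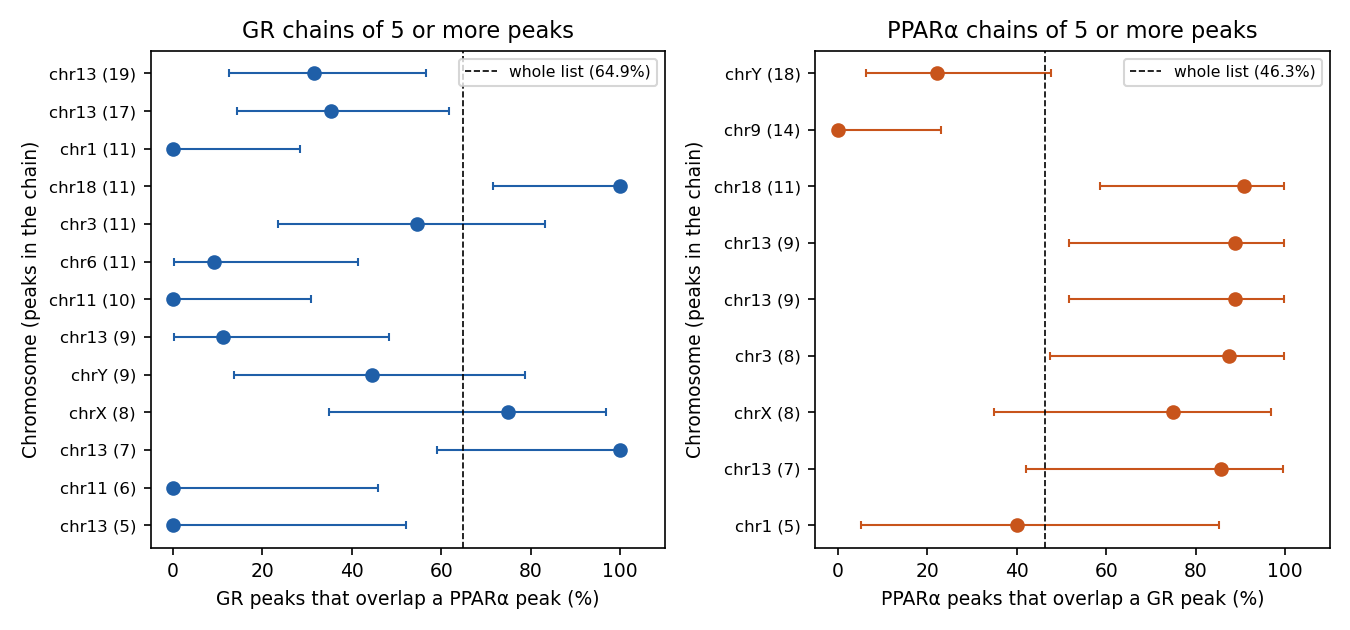
Share of peaks in each chain of 5 or more that overlap a peak of the other list by at least 1 bp (points, in percent) with exact 95% intervals (bars), for GR chains on the left and PPARα chains on the right; dashed lines mark the whole lists. GR chains range from 0 to 100% around the 64.9% of the list, and the PPARα chains on chromosomes 13, 3, 18 and X lie above 46.3%.

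The GR chains with the most peaks lay on chromosome 13, known as the site of the main histone gene cluster of the mouse, with tRNA genes interleaved. In the PPARα list the chains on chromosomes Y, 9 and 18, with 18, 14 and 11 peaks, were larger than any on chromosome 13. Chromosome 13 held 63 clustered GR peaks, 59.4% of the 106 GR peaks on that chromosome, in 7 chains, and 28 of its 95 PPARα peaks, in 4 chains. From 23529939 to 23673803 ran the longest GR chain by number, with 19 peaks of 6 to 13 reads (median 9) and folds of 17.3 to 59.1. Fold here is the authors' enrichment over the local background. The chain fell into a part without and a part with PPARα. All 11 GR peaks up to 23622329 were unshared, and from 23623161 on 6 of 8 GR peaks were shared with a PPARα chain of 9 peaks. The unshared first part had a median width of 146 bp and a median fold of 26.4, and the part alongside the PPARα chain 99 bp and 41.5. Both parts had similar reads, with medians of 9 and 8.

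The next GR chain to the left, from 21802826 to 22121190, was split in the same manner but in the reverse order. All 6 GR peaks between 21809832 and 21923786 were shared with a PPARα chain of 7 peaks, which ran from 21809843 to 21923896. The 9 GR peaks from 21974666 to 22121190 were all unshared, as were the first 2 of the chain. Together these 11 had a median fold of 29.6 and a width of 143 bp, against 44.4 and 102.5 bp for the 6 shared peaks. A PPARα chain ends where no further PPARα peak lies within 100 kb, so the absence of shared peaks that close to its ends follows from the rule. This holds for all 11 unshared peaks beside the PPARα chain of 9 peaks, but here for only 4 of the 9 on the right, the other 5 being farther away, by up to 197153 bp.

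Every peak was shared in the GR chain from 23789988 to 23853914 on the same chromosome. Its 7 GR peaks held 7 to 42 reads with folds of 29.6 to 183.6, and the 9 PPARα peaks there held 4 to 25 reads with folds of 50.2 to 527.3. The strongest GR peak of the chain, from 23836960 to 23837190, held 42 reads, and 2 PPARα peaks of 25 and 5 reads lay inside it. At 23852713 to 23852843 the PPARα peak held more reads than the GR peak, 16 against 11. Reads summed over the chain came to 101 for GR, in peaks covering 824 bp, and 90 for PPARα, in peaks covering 878 bp. The ratio was 0.891, where the depths alone would give 0.261. Pairs of 1 GR and 1 PPARα peak outside chains had a similar median ratio, 0.941.

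On chromosome 3, where a smaller histone gene group is known, the 11 GR peaks from 96042463 to 96305078 were also divided. The first 6 peaks, up to 96073022, were shared and held 7 to 22 reads with folds of 28.3 to 100.7. The PPARα chain there had 8 peaks of 4 to 26 reads. Its leading peak, from 96042459 to 96042642, held 26 reads against 21 in the GR peak, with summits 2 bp apart. After a gap of 77627 bp followed 5 unshared GR peaks of 6 to 17 reads and folds of 17.8 to 33.3. The last of these, from 96304838 to 96305078, was the widest of the chain at 241 bp.

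**Figure D2:**
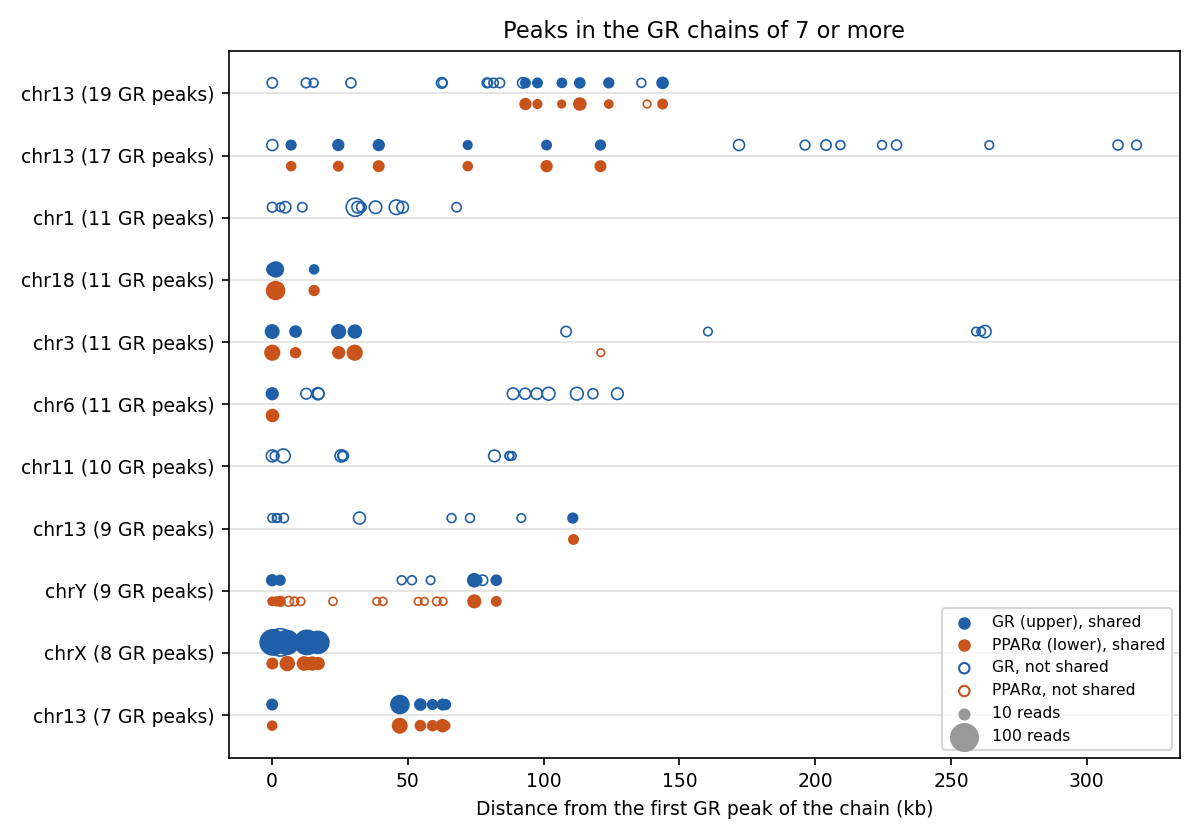
Peaks in the 11 GR chains of 7 or more peaks, one chain per row, against the distance in kb from the first GR peak of the chain; GR peaks are above and PPARα peaks below each line, filled where shared, and the area of a marker grows with its reads. Filled markers of both receptors lie together on chromosomes 13, 3 and 18, and long runs of open GR markers on chromosomes 13, 1, 6 and 11 have no PPARα peak beside them.

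Large GR chains with almost no PPARα peak lay on chromosomes 1, 11, 6 and 13. The first, on chromosome 1 from 172964005 to 173032022, had 11 GR peaks of 6 to 43 reads and no PPARα peak. Its middle was the densest part, with a peak of 561 bp and 43 reads from 172994366 to 172994926 and one of 375 bp and 26 reads from 173009637 to 173010011. Folds at the middle 6 peaks were 8.50 to 16.6, and at the 5 peaks of the flanks 17.7 to 35.5. The chain on chromosome 11, from 68850405 to 68938767, held 10 GR peaks of 6 to 23 reads in 3 groups and likewise no PPARα peak. Its folds were 21.1 to 39.2, and 4 of the 10 peaks were wider than 200 bp, against 11.1% of the GR list.

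The single shared peak of the other pair lay at an end of its chain. On chromosome 6, from 47601045 to 47728267, the first of 11 GR peaks was shared, with 15 GR and 16 PPARα reads and summits 1 bp apart. It had the highest fold of the chain, 32.9, while the 10 unshared peaks held 10 to 19 reads with folds of 8.22 to 15.3. In the chain on chromosome 13 from 21259936 to 21370703 the last of 9 GR peaks was shared, with 9 GR and 8 PPARα reads. It too had the highest fold of its chain, 44.5, and with 52 bp was the narrowest. The other 8 peaks held 6 to 16 reads. Over these 4 chains 2 of 41 GR peaks were shared (4.88%, exact 95% interval 0.596 to 16.5%). Their 39 unshared peaks had a median of 12 reads and a width of 144 bp. In the 4 chains of 7 or more GR peaks on chromosomes 13 and 3 that met a PPARα chain, the 25 shared GR peaks had a median of 10 reads and 105 bp, and the 29 unshared ones 9 reads and 143 bp. The chains were grouped here by whether PPARα peaks were present, so only reads and widths describe something that the grouping did not use.

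Smaller GR chains without PPARα included 6 peaks on chromosome 11 from 48632034 to 48670563, with 6 to 14 reads, and 5 on chromosome 13 from 74666080 to 74668054, with 25 to 42 reads. The latter peaks were packed within 1975 bp, and their folds of 7.92 to 11.7 were low for their reads. Further such chains lay on chromosome 14 (4 peaks, 62 reads), on chromosome 17 (4 peaks, 51 reads) and on chromosome 1 from 134916122 (3 peaks, 29 reads).

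Shares were also set beside depth. A GR peak needs 15.3 reads for the depths to give 4 reads, the smallest number in a PPARα peak. Among GR peaks of at least 16 reads 78.3% were shared in the whole list. In chains this was 31 of 58 (53.4%, exact 95% interval 39.9 to 66.7%), and outside 204 of 242 (84.3%, 79.1 to 88.6%). Among these deeper peaks compact chains had 16 of 27 shared (59.3%, 38.8 to 77.6%), and spread chains had 15 of 31 (48.4%, 30.2 to 66.9%). Of the 11 unshared deeper peaks in compact chains, 5 lay in the chain on chromosome 13 from 74666080. Another 3 lay in the chain on chromosome 11 from 68850405, and neither chain had a shared peak. None of the 36 GR peaks in the chains of 19 and of 17 on chromosome 13 reached 16 reads. Even so 12 of them, with 6 to 13 reads, were shared with PPARα peaks of 4 to 16 reads, and the 24 unshared ones also held 6 to 13 reads. In the 4 chains with almost no PPARα, which were grouped for that lack, 10 GR peaks reached 16 reads, 3 each on chromosomes 1, 6 and 11 and 1 on chromosome 13. A PPARα peak of 4 reads also has to pass the caller's p against the local input, which the depth ratio leaves out.

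In pairs of 1 peak from each list, median summit distances were similar in chains and outside. In 67 pairs of 1 GR and 1 PPARα peak with the GR peak in a chain, the summits were a median of 3 bp apart (quartiles 2 and 8.5 bp). In the 649 pairs outside chains the median was 4 bp (2 and 8 bp). Summits were called at fragment sizes of 42 bp for GR and 38 bp for PPARα, so these distances compare called positions only. Requiring summits at most 50 bp apart took the shared percentage of clustered GR peaks from 42.3% to 37.0%. Outside chains it went from 69.3% to 66.0%. For PPARα peaks it went from 59.1% to 47.6% in chains and from 44.9% to 42.4% outside. By this measure shared peaks in chains matched less closely. The ratio of PPARα to GR reads had a median of 0.925 (quartiles 0.672 and 1.23) in chains and 0.941 (0.727 and 1.14) outside, both above the 0.261 of the depths. No pair with few GR reads can reach that value, because every PPARα peak has at least 4 reads. In 6 of the 67 pairs in chains, and 4 of the 649 outside, the ratio did not exceed the ratio of the depths. The PPARα peak held more reads than the GR peak in 26 of the 67 pairs in chains and 229 of the 649 outside. Over all 716 pairs this held for 255.

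Unshared clustered peaks lay nearer to a peak of the other receptor than unshared peaks outside chains did. Median distances were 92989 bp against 637987 bp for GR and 25145 bp against 890768 bp for PPARα. Of the 109 unshared clustered GR peaks, 21 (19.3%) lay within 10 kb of a PPARα peak, against 15 of 297 (5.05%) outside chains. For the 67 unshared clustered PPARα peaks the number within 10 kb of a GR peak was 29 (43.3%), against 31 of 819 (3.79%). Peaks chosen for having close neighbours lie in stretches rich in peaks of both lists, so this follows in part from the rule.

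Clustered GR peaks were wider and lower in fold than other GR peaks. Widths in the GR list were called at a fragment size of 42 bp and are not read as sizes of bound sites. Their median width was 133 bp (quartiles 102 and 193), against 106 bp (72 and 133) outside chains. A width over 200 bp was found in 42 of 189 (22.2%), against 11.1% of the GR list. Their median fold was 27.6, against 35.5, and 149 of 189 (78.8%) reached a fold of 10, against 91.4% of the GR list. Their median of 11 reads (95% interval 10 to 13) was above the 8 outside chains. In the top 25% by reads stood 58 of 189 (30.7%, exact 95% interval 24.2 to 37.8%). With ties that top group held 25.9% of the list, a value inside the interval, and in spread chains the share was 23.1%. The unshared clustered peaks were the wider ones, with a median of 151 bp and a fold of 23.7, against 111.5 bp and 41.5 for the shared ones. Outside chains the same order held, at 117 bp for unshared and 96 bp for shared GR peaks.

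Clustered PPARα peaks held more reads than other PPARα peaks. Their median was 10.5 reads (quartiles 5 and 21.5) against 6 (4 and 10) outside chains, and 82 of 164 (50.0%) were in the top 25% by reads, which with ties held 25.1% of the list. The median width was 94 bp against 67 bp. Widths over 200 bp were found in 30 of 164 (18.3%), against 4.54% of the PPARα list. A fold of 10 was reached by 148 of 164 (90.2%), against 98.3% of the list. Compact chains carried the wide peaks, with a median of 141 bp and 19.5 reads, whereas the median in spread chains was 75 bp and 7 reads.

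**Figure D3:**
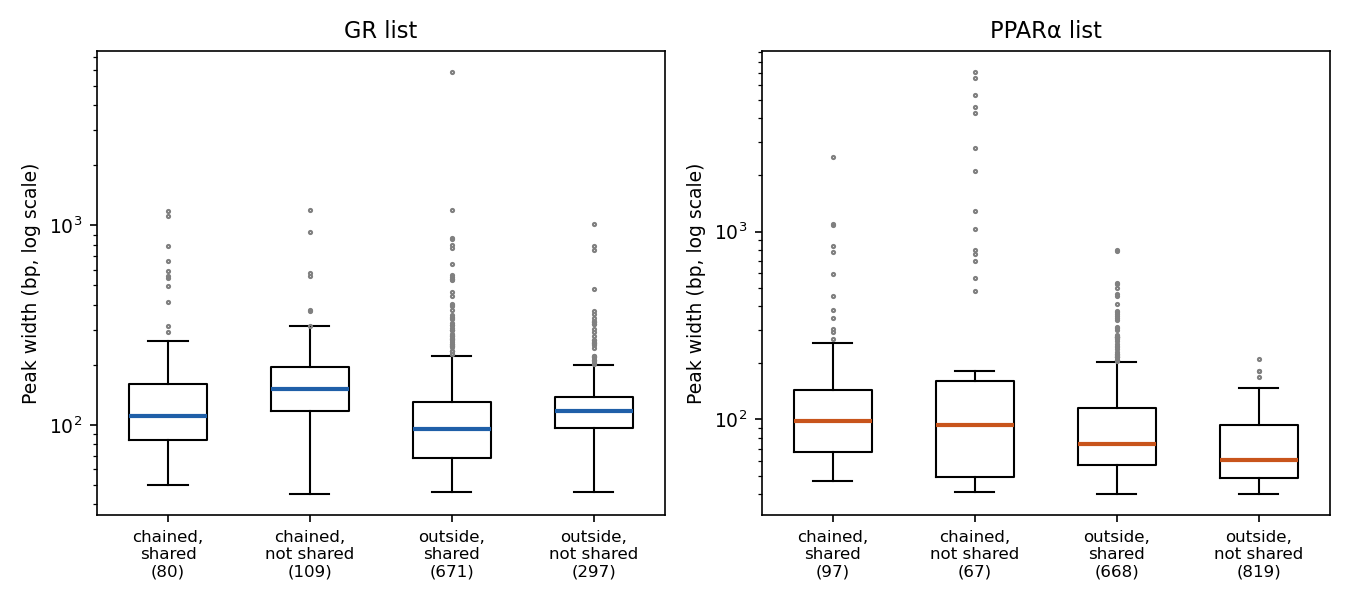
Width of peaks in bp (log scale) in the GR list on the left and the PPARα list on the right, for peaks in chains and outside, shared and not; boxes span the quartiles with the median as a coloured line, whiskers reach 1.5 box lengths, dots are single peaks beyond them, and counts are in brackets. The GR medians are 111.5 and 151 bp in chains and 96 and 117 bp outside.

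In part of the chains the fold was low for the number of reads. The fold can be put in reads at the genome-wide background, so that a fold of 5.92 (GR) or of 25.1 (PPARα) counts as 1 read. A called summit holds at least 1 read, so a fold worth under 1 read means a local background above the genome-wide one. That reasoning does not cover folds worth 1 to 3 reads, and the cause of those was not tested. A fold worth under 3 reads was found in 59 of 189 clustered GR peaks (31.2%), against 15.7% of the GR list, and in 76 of 164 clustered PPARα peaks (46.3%), against 23.1% of that list. The GR chains of 7 or more peaks on chromosomes 13 and 3 that met PPARα chains had medians of 5 to 10.0 such reads. Among the chains with almost no PPARα, the median was 1.86 on chromosome 6 and 2.80 on chromosome 1, from 172964005. It was 4.66 on chromosome 11, from 68850405, and 4.02 on chromosome 13, from 21259936. Lower medians were found in GR chains that met PPARα chains on chromosomes 2 (0.925), X (1.31) and Y (0.881). Input reads per peak were not analysed here.

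**Figure D4:**
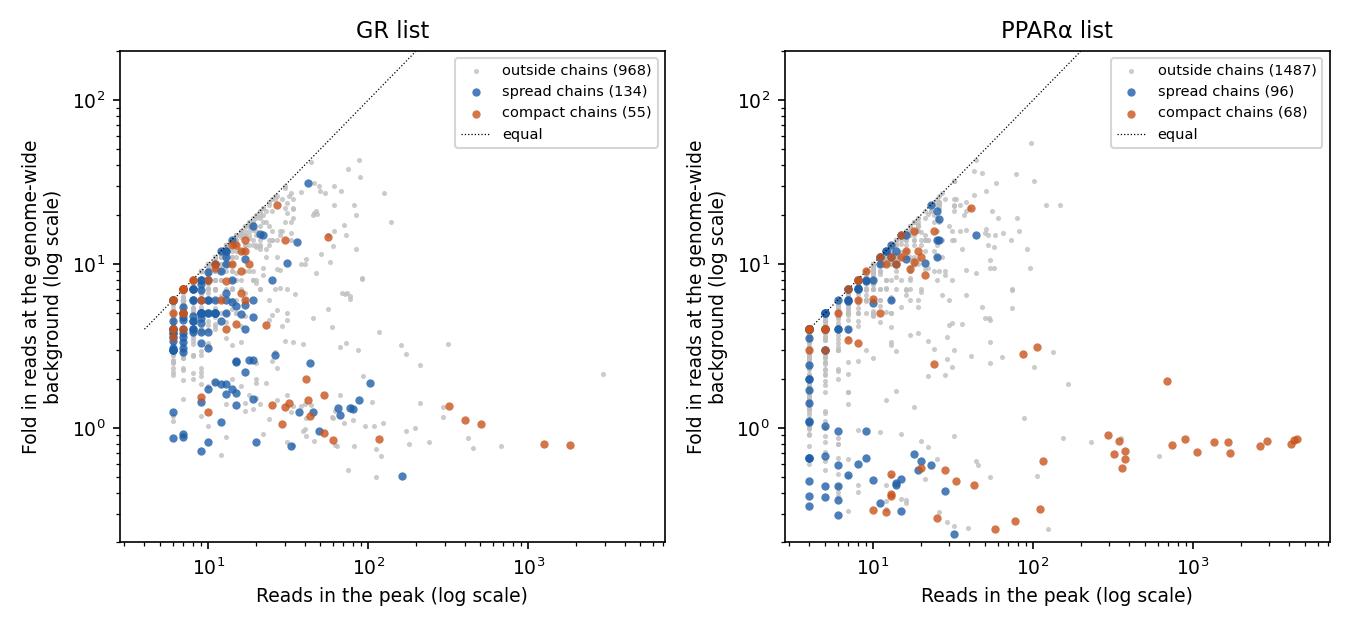
Reads in each peak (x axis) against its fold expressed in reads at the genome-wide background (y axis), both on log scales, for the GR list on the left and the PPARα list on the right; the dotted line marks equality. Peaks outside chains (grey) lie mostly near the line, and many peaks of compact chains (orange) hold up to 4488 reads at a fold worth about 0.853.

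Some chains held most of the clustered reads. A compact chain of 4 GR peaks on chromosome 2, from 98502370 to 98507509, held 3997 of the 7575 clustered GR reads (52.8%). In the PPARα list the chain of 14 peaks at the start of the chromosome 9 sequence, from 3000001 to 3038400, held 24475 of 30653 (79.8%) and met no GR peak. Without the chromosome 2 chain the clustered GR peaks held 3578 reads, 0.0476% of the library. Without the chromosome 9 chain the clustered PPARα peaks held 6178 reads, 0.315%. These still include 3394 reads in a PPARα chain of 4 peaks at the chromosome 2 locus, from 98502376 to 98507496. All 4 of those peaks were shared with the GR chain. The assembled sequence of mouse chromosomes opens with a long unsequenced stretch, and chains lay just behind it on other chromosomes too. On chromosomes other than Y, first peaks before position 3200000 were found in 4 PPARα chains (chromosomes 9, 11, 6 and 4, with 25 peaks). Among GR chains there were 2 (chromosomes 11 and 4, with 6 peaks). In the chromosome 11 chain from 3000344 the GR peak of 1196 bp held 163 reads at a fold of 3.

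Other chains of high reads and low fold were on chromosome 17. The 4 GR peaks from 13743578 to 13746068 held 544 reads with a median fold of 6.76, and the 3 PPARα peaks there held 104. Another 4 PPARα peaks, from 39980720 to 39985756, all lay in 1 GR peak of 2917 reads. On chromosome 6 the 4 PPARα peaks from 3150768 to 3151672 held 237 reads.

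The sex chromosomes each had 1 chain per list. On chromosome Y 9 of the 11 GR peaks (81.8%) and 18 of the 21 PPARα peaks (85.7%) lay in the chain that began at 2691341 and 2689350. Its peaks were the narrowest of the large chains, with medians of 51 bp for GR and 46 bp for PPARα, and 4 peaks of each list were shared. The most-read shared peak, from 2765776 to 2765831, held 20 GR and 18 PPARα reads. Folds there were low, 4.28 to 11.3 for GR and 7.84 to 25.8 for PPARα. On chromosome X the 8 GR peaks from 166427204 to 166444374 held 33 to 103 reads and were wide, with a median of 549.5 bp. The 8 PPARα peaks there held 4 to 23 reads with a median of 127.5 bp. Peaks covered 3887 bp in the GR chain and 1053 bp in the PPARα chain, with 137 and 114 reads per kb covered.

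A compact chain shared throughout in the GR list lay on chromosome 18 from 53221908 to 53237431. All 11 GR peaks and 10 of 11 PPARα peaks were shared, with 6 to 27 reads for GR and 5 to 41 for PPARα. Peaks there covered 1139 bp in the GR list and 1184 bp in the PPARα list, and the summed PPARα reads were 1.31 times the GR reads. Per 1000000 library reads the chain held 18.6 GR and 93.4 PPARα reads.

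To set the label of the loci beside gene positions, genes were counted by chromosome in a RefSeq gene table of another assembly, GRCm38. Its coordinates served only to find which genes lie less than 100 kb apart, and no peak was compared with them. Chromosomes 13, 6, 11, 3 and 1, in this order, have the most tRNA genes, 287 of 408 (70.3%). They held 34.8% of all GR peaks but 106 of the 134 GR peaks in spread chains (79.1%) and 72 of the 88 unshared ones (81.8%). They held 29.4% of all PPARα peaks, 51 of the 96 in spread chains (53.1%) and 14 of the 41 unshared ones among these (34.1%). In that table chromosome 13 has 57 histone genes, of which 39 have a tRNA gene less than 100 kb away, and chromosome 3 has 11, of which 8 do. Histone genes were few on chromosomes 11 and 6, with 4 and 3, and none were listed on chromosome 1. The same chromosomes carry all the loci that the rule gives as examples, so these shares are no independent check of the label. Of the 106 GR peaks in spread chains, 52 lay on chromosome 13, in 4 chains, and peaks of 1 chain are not independent counts. No test was made. Counts per chromosome do not place a peak at a gene, so the label of histone and tRNA loci was only set beside them.

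**Figure D5:**
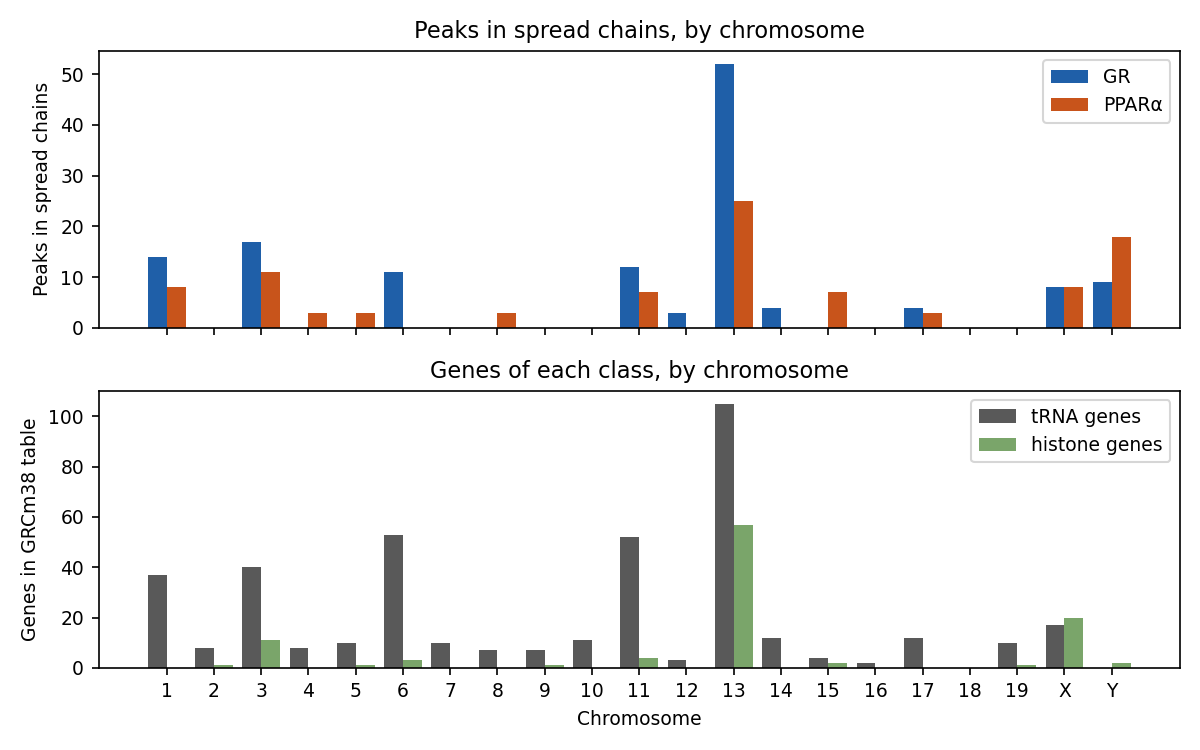
Number of peaks in spread chains by chromosome for GR and PPARα (top) and number of tRNA and histone genes by chromosome in the GRCm38 gene table (bottom). Chromosome 13 is highest in all 4 series, with 52 GR peaks, 25 PPARα peaks, 105 tRNA genes and 57 histone genes.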

How the data were processed

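ChIP DNA from 10000000 BFU-E cells per immunoprecipitation was sequenced from fragments of 200 to 400 bp, per the labels' protocols. Reads were handled with cutadapt and Bowtie on mm9, per the submitters' processing notes, with versions not given in the sources used here. MACS 1.4.2, per the file headers, compared each ChIP library with 1 input at a p cutoff of 1e-05 and kept 1 read per position. The deposited tables hold, peak by peak, the position, width, summit, read count, a score (the negative log10 of p, times 10), the fold ratio over background and the FDR (percent). The misnamed score column of the GR table was found by its place. The authors' shorter lists were checked to hold exactly the 1058 GR and 1623 PPARα peaks with a fold of 10 or more. Fold and score are the authors' values and were compared only within a list.

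Chains, overlaps and summaries were computed with Python 3.11.15, numpy 2.4.6, pandas 2.3.3 and scipy 1.17.1, and figures with matplotlib 3.10.9. Chaining and overlap were tested on simulated data. Shares have exact Clopper-Pearson intervals. With 1 library per antibody no p was computed. Named chains are those of 8 or more peaks, the example loci of the rule and, among chains of 3 to 7, the 3 with the most reads per list. Leading peaks are given for part of them. Other smaller chains were chosen after their values were seen. Members, classes and alternatives were chosen with earlier results of these data known. Alternatives changed the gap, the chain size, the peaks entered, merging and the meaning of overlap. No sequence is printed, because none of mm9 was used here.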

Additional observations from a re-analysis of the deposited data

How the results depend on the processing

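Of 114 values recomputed under 12 alternatives (10 planned, 2 chosen after seeing the data), 86 stayed within 1.5 times of a count or inside the 95% interval of a share or median, and 28 did not. In every alternative that gave both values, the shared percentage of GR peaks was lower in chains than outside and that of PPARα peaks higher, by 14.1 to 35.8 and by 5.13 to 18.5 percentage points. The 95% interval of the clustered share left out the value outside chains in all of these for GR, but held it for PPARα at a fold of 10 or more and with summits at most 50 bp apart. Requiring chains of 4 peaks left 17 GR and 15 PPARα chains, and a gap of 200 kb gave 49 PPARα chains. Merging peaks under 1 kb apart left 112 GR peaks in 16 chains and 73 PPARα peaks in 14. Median widths were then 157.5 bp for GR and 78.0 bp for PPARα, and 33.9% of clustered GR peaks were shared. With folds of at least 20, chains held 121 GR and 109 PPARα peaks, with a GR median of 9 reads. Outside chains 74.0% of GR and 41.5% of PPARα peaks were then shared. At a fold of 10 the clustered PPARα share was 48.9% (40.4 to 57.5%), against 43.3% outside. Peaks of at least 80 bp left 68 PPARα peaks in 14 chains, with a median of 22 reads and 162.5 bp, and a GR median of 149 bp. That restriction took the shared percentage of GR peaks to 26.8% in chains and 40.9% outside. With summits at most 50 bp apart it was 66.0% for GR outside chains and 47.6% (39.7 to 55.5%) for clustered PPARα peaks, against 42.4% outside. In spread chains alone 34.3% of GR peaks were shared, and the PPARα medians were 7 reads and 75 bp. The cause of these moves was not tested except where the restriction itself sets it. No paired analysis was possible because each antibody has 1 library. The PPARα list rests on few reads, so peaks missing from it in chains of weak GR peaks cannot be read as unbound sites.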

Other observations

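Beside the chain at the start of chromosome 9, the PPARα list had 2 chains with no GR peak. On chromosome 3, from 100027388 to 100027905, 3 PPARα peaks held 22 reads, and on chromosome 1, from 87353786 to 87469221, 3 peaks held 14 reads. Other multicopy gene families were counted in the same way. In the GRCm38 gene table chromosomes 2 and 7 have the most olfactory receptor genes, 377 and 294, and chromosome 7 also has the most vomeronasal receptor genes, 282. Neither chromosome had a peak in a spread chain in either list. Chromosomes 6 and 13 come next in vomeronasal receptor genes, with 97 and 89, and had 11 and 52 GR peaks in spread chains. Chromosome 11, with 104 olfactory receptor genes, had 12. These are counts over chromosomes, chosen after the spread chains were seen, and no test was made of them.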
